A study of Mus musculus with 12 samples.

Results

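Myeloid cells choose between macrophage, dendritic cell and osteoclast fates under the control of a small set of transcription factors. The members described here are 9 such genes, Spi1, Cebpa, Cebpb, Klf4, Maf, Zbtb46, Batf3, Id2 and Bcl6. They were chosen by name, as regulators known from the differentiation of macrophages and dendritic cells, out of 46072 genes in the authors' deposited table, and all 9 are in it. RNA sequencing was done on marrow cultures of C57BL/6J mice aged between 6 and 8 weeks. Osteoclasts (Oc) received RANKL (50 ng/ml) plus the macrophage growth factor M-CSF (30 ng/ml), immature dendritic cells (Dc) received GM-CSF (20 ng/ml), and bone marrow macrophages (Mo) received M-CSF alone (30 ng/ml). There were 12 libraries, 4 of each type. Cells for osteoclasts and macrophages first spent 5 days in M-CSF at 100 ng/ml, a step not described for dendritic cells. Differences of dendritic cells from the other cultures cannot be told apart from that step. Growth in the final medium lasted 8 to 10 days, and cells with 1 nucleus were removed from the osteoclast cultures alone with Accutase.

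These factors act at different levels. SPI1 (PU.1) is needed for all myeloid lineages, C/EBPα and C/EBPβ act with it in monocytes and granulocytes, and KLF4 promotes monocyte development. In mice, MAF helps to hold macrophages in their differentiated, non-dividing state. ZBTB46 marks classical dendritic cells, and in mice BATF3 and ID2 are needed for the cross-presenting type 1 dendritic cells, while ID2 itself lacks a DNA-binding region and blocks E proteins. BCL6 is a repressor that lymphocytes, macrophages and dendritic cells use.

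The deposited values were the authors' mean normalised reads per cell type, their log2 fold changes and their adjusted p-values. The standard error (SE) given with a fold change is the one implied by the authors' p-value. A gene was called higher or lower where the authors' adjusted p was under 0.05. For genes with low means, the whole reads of each library were worked back from the mean, and libraries are then named A to D by falling size factor. These letters carry no replicate number. Labelled identities were checked with marker lists, and sums of the authors' means from the authors' deposited table are given. The 9 osteoclast markers summed to 327109 in osteoclasts, 40195 in dendritic cells and 4243 in macrophages. The 12 dendritic cell markers summed to 9488 in osteoclasts, 528815 in dendritic cells and 6161 in macrophages, and the 10 macrophage markers to 123668 in osteoclasts, 77256 in dendritic cells and 258091 in macrophages, all sums from the authors' deposited table. The dendritic cultures also carried transcripts of other lineages. The 14 neutrophil markers summed to 610 in osteoclasts, 35969 in dendritic cells and 1544 in macrophages by the authors' deposited table, and the 8 eosinophil markers to 400 in osteoclasts, 10374 in dendritic cells and 184 in macrophages. Mmp8 alone gave 18254 of the neutrophil sum in dendritic cells and 407 in osteoclasts. Csf3r gave 1094 of it in macrophages, against 411 in dendritic cells. Mpo also had a lower mean in dendritic cells, at 3.06, than in macrophages, at 6.59. By the authors' calls, 12 of the 14 were higher and 1 lower in dendritic cells than in macrophages. The 11 mast cell and basophil markers summed to 67.2 in osteoclasts, 748 in dendritic cells and 7.06 in macrophages by the authors' deposited table. No neutrophil or eosinophil marker was at 0 in dendritic cells, whereas Elane, Prtn3 and the eosinophil marker Prg3 were at 0 in osteoclasts, and Camp and Ly6g in macrophages. Over the 7 neutrophil markers recovered in every cell type, library sums ran from 9.07 to 28.0 normalised reads in osteoclasts, from 748 to 1678 in dendritic cells and from 4.79 to 27.5 in macrophages. The part of these cells in the results below was not tested.

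The 9 factors ranged from nearly even levels in the 3 cell types to strongly separated ones. In the authors' deposited table the highest mean exceeded the lowest 206-fold for Batf3, 65.6-fold for Zbtb46 and 45.3-fold for Maf. The same ratio in the authors' deposited table was 4.84 for Id2, 4.57 for Klf4, 3.92 for Bcl6, 3.32 for Cebpb, 1.75 for Cebpa and 1.51 for Spi1. Dendritic cells held the highest mean of 5 members (Cebpb, Klf4, Zbtb46, Batf3 and Id2), macrophages of 3 (Cebpa, Maf and Bcl6) and osteoclasts of Spi1. In bulk cultures, fewer cells of a type and less RNA per cell cannot be told apart.

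**Figure D1:**
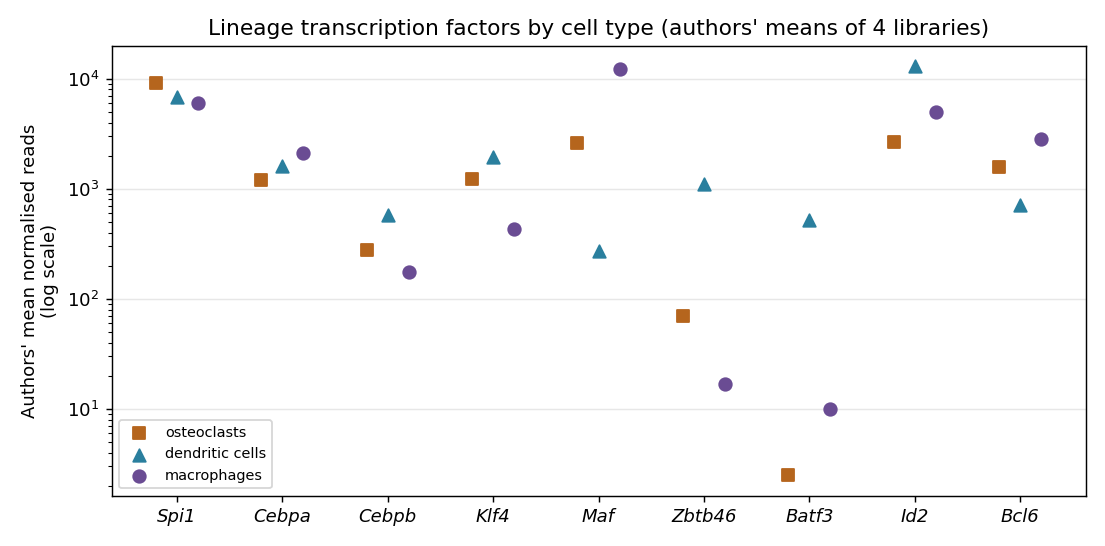
The authors' mean normalised reads (log axis) of each of the 9 factors in osteoclasts (squares), dendritic cells (triangles) and macrophages (circles); each point is a mean of 4 libraries, without error bars. Batf3, Zbtb46 and Maf spread over 206-fold, 65.6-fold and 45.3-fold, while Spi1 and Cebpa stay within 1.75-fold.

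Levels of different genes can be set side by side only per length, here as the authors' mean per kilobase of all annotated exons. On that scale Spi1 led in osteoclasts, at 3377 per kb, and in macrophages, at 2237 per kb, and was second in dendritic cells, at 2510 per kb, from means of the authors' deposited table. Id2 led in dendritic cells, at 5309 per kb, and was second in both other cell types, at 1097 per kb in osteoclasts and 2027 per kb in macrophages, from the same authors' deposited table. Maf stood at 313 per kb in osteoclasts, 32.8 per kb in dendritic cells, where it was last, and 1485 per kb in macrophages, where Spi1 and Id2 alone exceeded it, from the authors' deposited table. Batf3 and Zbtb46 were the 2 lowest members both in osteoclasts (1.56 and 8.28 per kb) and in macrophages (6.25 and 1.97 per kb), from the authors' deposited table.

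Between osteoclasts and macrophages, 3 members were called higher in osteoclasts and 5 lower, where the authors' deposited table called 29.3% of 17822 tested genes, 14.5% higher and 14.7% lower. Between osteoclasts and dendritic cells, 3 members were called higher in osteoclasts and 5 lower, where 36.9% of 21217 genes were called in the authors' deposited table, 16.8% higher and 20.1% lower. Between dendritic cells and macrophages, 5 members were called higher in dendritic cells and 2 lower, where 36.7% of 20730 genes were called in the authors' deposited table, 20.3% higher and 16.4% lower. The members were picked as regulators of these lineages, so a share above the background is no separate finding. The median log2 fold change of all tested genes in the authors' deposited table was -0.03 for osteoclasts over macrophages, -0.05 for osteoclasts over dendritic cells and 0.05 for dendritic cells over macrophages. The comparisons share libraries and are therefore not independent. These shares of all tested genes are also the background for the calls counted in gene lists below.

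Exactly 1 set of whole reads gave the means of both cell types for Batf3, Zbtb46 and Cebpb in every comparison, and for Klf4 between osteoclasts and macrophages. Members with several possible sets, Bcl6 among them, are left out of the counts that follow. The percentages beside them cover other genes with means up to 1000 in both cell types, while members were let in up to 3000. Klf4 at 1229 in osteoclasts and Zbtb46 at 1099 in dendritic cells exceed 1000, so these shares are not like for like. Between osteoclasts and macrophages 3 of these 4 had libraries that did not overlap, 2 higher and 1 lower in osteoclasts, where 25.7% of 11905 genes did not overlap, 13.8% higher and 11.9% lower. Between osteoclasts and dendritic cells 2 of 3 did not overlap, both lower in osteoclasts, where 37.3% of 12631 genes did not overlap, 15.1% higher and 22.2% lower. Between dendritic cells and macrophages 3 of 3 did not overlap, all higher in dendritic cells, where 32.4% of 12599 genes did not overlap, 19.5% higher and 12.9% lower. By limma on the same libraries, 3 of 4 were called between osteoclasts and macrophages against 21.1% of genes, 3 of 3 between osteoclasts and dendritic cells against 37.9%, and 3 of 3 between dendritic cells and macrophages against 30.7%.

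**Figure D2:**
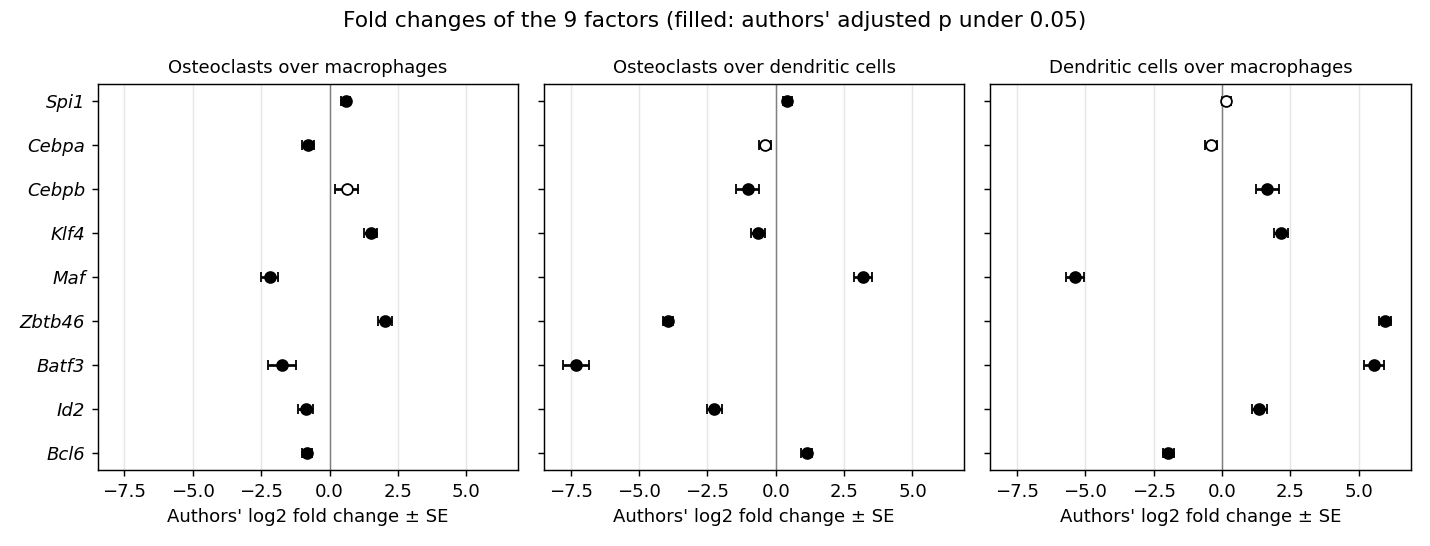
The authors' log2 fold change of each factor (points) with the implied standard error (bars) in the 3 comparisons on 1 common axis; filled points had an authors' adjusted p under 0.05. Batf3, Zbtb46, Id2 and Klf4 lie below 0 for osteoclasts over dendritic cells and above 0 for dendritic cells over macrophages, while Maf and Bcl6 lie the other way in both panels.

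The RefSeq table of sequences before gene starts covered 7 of the 9 members. In the 250 bases before the RefSeq start, the letters GAGGAA, a core that SPI1 is known to bind, were found on either strand in 2 of those 7, Batf3 and Bcl6, and in 23.3% of all 32851 windows of that length. Bcl6 has 2 windows, of which the one at the start in GENCODE holds it. The Batf3 window lies inside the gene's GENCODE span, since another annotated transcript starts further upstream, and its RefSeq start is 31 bases from the nearest GENCODE start. The windows below are shown because they belong to factors with opposite patterns, Batf3 highest in dendritic cells and Bcl6 lowest there. Capitals mark GAGGAA, and both sequences are given 5′ to 3′ along the gene's own strand in GRCm38.p6 (Batf3, plus strand, chr1:191098164-191098413; Bcl6, minus strand, chr16:23988853-23989102).
Batf3: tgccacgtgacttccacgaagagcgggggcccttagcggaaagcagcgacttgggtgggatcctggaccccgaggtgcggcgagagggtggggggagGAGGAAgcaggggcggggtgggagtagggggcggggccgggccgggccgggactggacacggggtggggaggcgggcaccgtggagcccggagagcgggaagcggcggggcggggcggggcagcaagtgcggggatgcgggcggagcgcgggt
Bcl6: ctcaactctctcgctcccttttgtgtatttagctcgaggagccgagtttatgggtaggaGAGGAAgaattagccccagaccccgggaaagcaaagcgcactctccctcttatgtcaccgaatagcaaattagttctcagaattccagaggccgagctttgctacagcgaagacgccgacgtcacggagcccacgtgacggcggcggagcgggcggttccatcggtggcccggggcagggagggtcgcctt
The Batf3 window was 76.0% G and C and the Bcl6 window 58.4%. A further pattern, CCNCNCCC, which resembles the sites of KLF proteins, occurred at 8 places in the Batf3 window and at 0 in the Bcl6 window on either strand, against 45.9% of all windows with at least 1. It overlaps runs of G or C, and its 9 occurrences before Klf4 and 6 before Cebpb lie in windows of 74.0% and 81.6% G and C. Such matches describe the letters and are no evidence of binding.

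Spi1 (chromosome 2, 91082390 to 91115756, plus strand, GRCm38), the ETS-family factor on which all myeloid cells rely, differed least. Its mean was 9100 normalised reads in osteoclasts, 6764 in dendritic cells and 6030 in macrophages by the authors' deposited table. It was called higher in osteoclasts than in macrophages, with a log2 fold change of 0.59 ± 0.17 (adjusted p 0.00383), and than in dendritic cells, with 0.43 ± 0.17 (adjusted p 0.0399), in the authors' deposited table. The neighbours dendritic cells and macrophages were not called different (0.16 ± 0.17, adjusted p 0.518, the authors' deposited table). Its relatives separated far more. Spib, an ETS factor that dendritic cells and B cells use, had 21.9, 17.9, 21.03 and 30.2 normalised reads in osteoclast libraries A to D, 355, 602, 476 and 921 in dendritic cell libraries and 1.92, 2.92, 1.95 and 3.93 in macrophage libraries. No library of 1 cell type overlapped another, and the fold changes in the authors' deposited table were 2.79 ± 0.48 for osteoclasts over macrophages, -4.60 ± 0.32 for osteoclasts over dendritic cells and 7.39 ± 0.46 for dendritic cells over macrophages on the log2 scale. Irf4, which binds DNA jointly with SPI1, averaged 35.0 in osteoclasts, 11403 in dendritic cells and 123 in macrophages by the authors' deposited table, and Irf8, another such partner, 900 in osteoclasts, 1763 in dendritic cells and 3156 in macrophages in the same table. Every pair of cell types was called different for both partners by the authors' deposited table. In the list of SPI genes and partners, 3 of 9 were called higher and 3 lower in osteoclasts than in macrophages, 3 higher and 5 lower in osteoclasts than in dendritic cells, and 3 higher and 2 lower in dendritic cells than in macrophages, by the authors' deposited table.

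Of 16 genes listed as bound by SPI1, 4 were called higher and 5 lower in osteoclasts than in macrophages, 4 higher and 7 lower in osteoclasts than in dendritic cells, and 7 higher and 4 lower in dendritic cells than in macrophages, by the authors' deposited table. They did not move as a block. Their median log2 fold change was -0.12, -0.36 and 0.33 in those 3 comparisons of the authors' deposited table. Ctsk, the collagen-degrading protease of osteoclasts, averaged 87805 in osteoclasts, 1472 in dendritic cells and 137 in macrophages by the authors' deposited table. Fcgr1, the high-affinity IgG receptor, averaged 83.4 in osteoclasts, 2944 in dendritic cells and 1812 in macrophages by the authors' deposited table.

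Cebpa (chromosome 7, 35119293 to 35121928, plus strand), which encodes the factor that opens the granulocyte and monocyte programme, was lowest in osteoclasts. Its mean was 1210 in osteoclasts, 1601 in dendritic cells and 2116 in macrophages by the authors' deposited table. Only the ends of that order were called, with a log2 fold change of -0.80 ± 0.22 for osteoclasts over macrophages (adjusted p 0.00185, the authors' deposited table). Osteoclasts over dendritic cells gave -0.40 ± 0.22 (adjusted p 0.151), and dendritic cells over macrophages -0.40 ± 0.22 (adjusted p 0.153), in the authors' deposited table. With the summed means of dendritic cells and macrophages made equal, that last difference became -0.55 (adjusted p 0.0347).

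Cebpb (chromosome 2, 167688915 to 167690418, plus strand), the C/EBP member induced by inflammatory signals and by GM-CSF, had the widest ratio of highest to lowest library among the resolved members, 5.31 in osteoclasts. It had 563, 219, 106 and 219 normalised reads in osteoclast libraries A to D, 850, 296, 620 and 555 in dendritic cell libraries, and 205, 199, 201 and 95.3 in macrophage libraries. All dendritic cell libraries lay above all macrophage libraries, while the osteoclast libraries overlapped both other cell types. The means were 277 ± 198 in osteoclasts, 580 ± 228 in dendritic cells and 175 ± 53.2 in macrophages (SD, n = 4 each). Without osteoclast library A the osteoclast mean was 181. In the authors' deposited table, Cebpb was called higher in dendritic cells than in macrophages (log2 fold change 1.66 ± 0.42, adjusted p 0.000399) and lower in osteoclasts than in dendritic cells (-1.03 ± 0.42, adjusted p 0.0416). An exact two-sided permutation test over the 4 libraries of each type gave p = 0.0286 between dendritic cells and macrophages, the smallest that 4 against 4 allows, p = 0.0857 between osteoclasts and dendritic cells, and p = 0.314 between osteoclasts and macrophages. Adjusted over the 10 such tests on members these were 0.0357, 0.0952 and 0.314 by exact permutation. The call between osteoclasts and dendritic cells ended in 6 of 8 fits that left out 1 library, with limma adjusted p from 0.00258 to 0.113. It was lost without osteoclast library B, C or D (adjusted p 0.0771, 0.113 and 0.0763 by limma) and without dendritic cell library A, C or D (0.108, 0.104 and 0.0814 by limma). Of its exon bases, 312 (20.7%) are shared with Tmem189 on the opposite strand, which averaged 6415 in osteoclasts, 7735 in dendritic cells and 5575 in macrophages by the authors' deposited table. No source used here gives the strand setting of the counting, so reads of the shared bases may count for either gene.

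Among the 7 genes of the C/EBP family, 2 were called higher and 2 lower in osteoclasts than in macrophages, 1 higher and 2 lower in osteoclasts than in dendritic cells, and 2 higher and 0 lower in dendritic cells than in macrophages, by the authors' deposited table. Of all tested genes, 29.3%, 36.9% and 36.7% were called in these comparisons, so both counts against dendritic cells are near the background. Cebpe, which drives the later steps of granulocyte maturation, had 35.8, 30.8, 53.1 and 77.6 normalised reads in osteoclast libraries A to D, 418, 112, 146 and 283 in dendritic cell libraries, and 4.79, 28.2, 6.82 and 18.7 in macrophage libraries. The 3 cell types did not overlap. Cebpd, by contrast, had means of 158 ± 62.3 in osteoclasts, 144 ± 51.3 in dendritic cells and 178 ± 59.0 in macrophages (SD, n = 4 each), and was not called in any comparison of the authors' deposited table. Of the 13 tested genes listed as C/EBP-dependent, 0 were called higher and 5 lower in osteoclasts than in macrophages, 0 higher and 11 lower in osteoclasts than in dendritic cells, and 10 higher and 1 lower in dendritic cells than in macrophages, by the authors' deposited table. The median log2 fold change was -7.07 for osteoclasts over dendritic cells and 7.09 for dendritic cells over macrophages in the authors' deposited table. Chil3, a chitinase-like protein, averaged 51.7 in osteoclasts, 56362 in dendritic cells and 56.0 in macrophages, by the authors' deposited table. Arg1, arginase, averaged 68.2 in osteoclasts, 41909 in dendritic cells and 51.6 in macrophages by the authors' deposited table. Of the 14 genes listed, 8 (Csf3r, Elane, Mpo, Prtn3, Ltf, Camp, Ngp and Lcn2) also stand among the neutrophil markers. The sum of the neutrophil markers given above is highest in the same cultures. Within the dendritic cell libraries the sum of 7 neutrophil markers was 1470, 748, 1678 and 1216 normalised reads in A to D, lowest in library B and highest in library C. Cebpb and Cebpe were also lowest in library B, but highest in library A. The part of neutrophil transcripts in these values was not tested.

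Klf4 (chromosome 4, 55527143 to 55532466, minus strand), a zinc-finger factor of monocytes and of a branch of type 2 dendritic cells, was lowest in macrophages. It had 1331, 1218, 1030 and 1335 normalised reads in osteoclast libraries A to D and 301, 397, 558 and 458 in macrophage libraries. The osteoclast libraries all lay above the macrophage libraries, with 1229 ± 143 against 429 ± 108 (SD, n = 4 each). The dendritic cell mean was 1959 in the authors' deposited table. 3 sets of whole reads give that mean, and the lowest library in any of them was at 723, above every macrophage library. In the authors' deposited table Klf4 was called higher in osteoclasts than in macrophages (log2 fold change 1.497 ± 0.26, adjusted p 9.33e-08), lower in osteoclasts than in dendritic cells (-0.66 ± 0.25, adjusted p 0.0266) and higher in dendritic cells than in macrophages (2.16 ± 0.26, adjusted p 4.24e-16). The difference between osteoclasts and dendritic cells was not called with their summed means made equal (-0.47, adjusted p 0.132). The exact permutation test between osteoclasts and macrophages gave p = 0.0286 (adjusted 0.0357).

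In the KLF family, 3 of 13 tested genes were called higher and 1 lower in osteoclasts than in macrophages, 1 of 14 higher and 6 lower in osteoclasts than in dendritic cells, and 7 of 14 higher and 2 lower in dendritic cells than in macrophages, by the authors' deposited table. Of all tested genes, 29.3%, 36.9% and 36.7% were called in these comparisons, so the count between osteoclasts and macrophages is near the background. Klf9 averaged 452 in osteoclasts, 1839 in dendritic cells and 411 in macrophages, by the authors' deposited table. Klf3, a repressor, averaged 1074 in osteoclasts, 1914 in dendritic cells and 2825 in macrophages by the authors' deposited table. Klf7 averaged 905 in osteoclasts, 1233 in dendritic cells and 489 in macrophages by the authors' deposited table, and was called in both comparisons with macrophages.

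**Figure D3:**
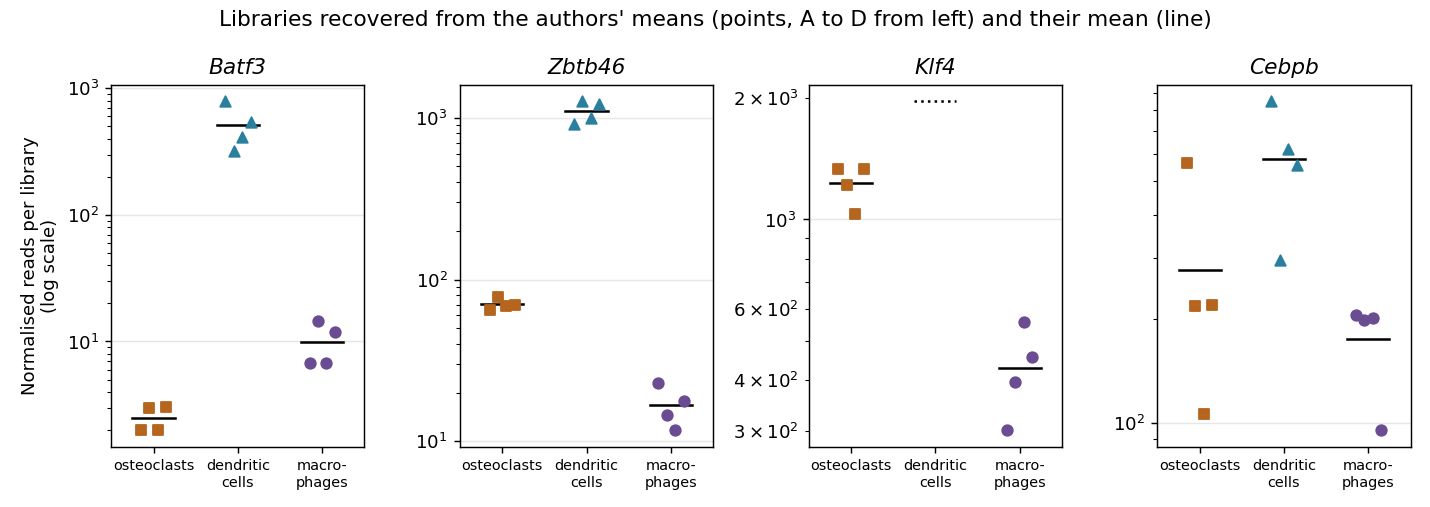
Normalised reads per library (log axis; points A to D from left) of Batf3, Zbtb46, Klf4 and Cebpb in osteoclasts, dendritic cells and macrophages, recovered from the authors' means; lines are means, dotted for Klf4 in dendritic cells, whose libraries were not resolved. Batf3 and Zbtb46 show 3 separate levels, while Cebpb in osteoclasts, from 106 to 563, overlaps both other cell types.

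Maf (chromosome 8, 115682942 to 115707794, minus strand), the large MAF factor of mature macrophages, marked the macrophages most strongly. Its mean was 2582 in osteoclasts, 270 in dendritic cells and 12236 in macrophages by the authors' deposited table. The dendritic cell libraries were close together, with 280, 273, 237 and 290 normalised reads in A to D (270 ± 23.2, SD, n = 4). Libraries of the other cell types could not be resolved at these levels. The log2 fold change was -2.19 ± 0.32 for osteoclasts over macrophages (adjusted p 3.76e-10), 3.18 ± 0.33 for osteoclasts over dendritic cells (4.70e-21) and -5.37 ± 0.33 for dendritic cells over macrophages (5.97e-59), in the authors' deposited table. Osteoclasts thus held a level between the 2 others, with both steps called. An antisense gene, Gm15655, shares 440 exon bases (5.34%) with Maf and averaged 238 in osteoclasts, 25.5 in dendritic cells and 1137 in macrophages by the authors' deposited table. Without the strand setting, reads of the shared bases cannot be told apart.

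The small MAF factor Maff, which lacks an activation domain, was highest where Maf was lowest. Maff had 190, 223, 184 and 157 normalised reads in osteoclast libraries A to D, 621, 771, 985 and 874 in dendritic cell libraries and 82.4, 116, 148 and 104 in macrophage libraries. No cell type overlapped another in these libraries. Mafk, another small MAF, averaged 621 in osteoclasts, 620 in dendritic cells and 675 in macrophages and was not called in any comparison of the authors' deposited table.

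Of 10 genes linked to MAF in mouse macrophages, 0 were called higher and 8 lower in osteoclasts than in macrophages, and 0 higher and 7 lower in dendritic cells than in macrophages, by the authors' deposited table. The median log2 fold change was -2.15 and -2.58 in these comparisons of the authors' deposited table. Between osteoclasts and dendritic cells, where Maf differed 9.56-fold in mean, the list was divided, with 3 genes higher and 2 lower in osteoclasts and a median of 0.28 in the authors' deposited table. C1qc, a chain of complement C1q, averaged 7528 in osteoclasts, 3697 in dendritic cells and 34524 in macrophages by the authors' deposited table. Folr2, a folate receptor of tissue macrophages, averaged 4890 in osteoclasts, 31.1 in dendritic cells and 12503 in macrophages by the authors' deposited table. Mrc1, the mannose receptor, was ordered otherwise, at 1916 in osteoclasts, 12216 in dendritic cells and 20746 in macrophages by the authors' deposited table. Il10, a suppressive cytokine, averaged 61.7 in osteoclasts, 0.511 in dendritic cells and 54.5 in macrophages and was not called between osteoclasts and macrophages (0.17 ± 0.42, adjusted p 0.816) in the authors' deposited table.

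Zbtb46 (chromosome 2, 181387762 to 181459426, minus strand), the zinc-finger factor of classical dendritic cells, separated all 3 cell types. It had 64.6, 78.5, 69.1 and 69.5 normalised reads in osteoclast libraries A to D, 922, 1263, 995 and 1215 in dendritic cell libraries and 23.0, 14.6, 11.7 and 17.7 in macrophage libraries. The 3 cell types did not overlap, and osteoclasts lay between the others. Means were 70.4 ± 5.83 in osteoclasts, 1099 ± 166 in dendritic cells and 16.7 ± 4.84 in macrophages (SD, n = 4 each). The log2 fold change was 2.03 ± 0.24 for osteoclasts over macrophages (adjusted p 2.82e-15), -3.94 ± 0.18 for osteoclasts over dendritic cells (1.20e-109) and 5.97 ± 0.23 for dendritic cells over macrophages (3.19e-149), in the authors' deposited table. Each of the 3 exact permutation tests gave p = 0.0286 (adjusted 0.0357). 

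Batf3 (chromosome 1, 191097847 to 191108945, plus strand), the AP-1 family factor needed for type 1 dendritic cells, was low outside the dendritic cultures. It had 1.99, 2.98, 2.00 and 3.02 normalised reads in osteoclast libraries A to D, 789, 319, 413 and 542 in dendritic cell libraries and 6.71, 14.6, 6.82 and 11.8 in macrophage libraries. The osteoclast values rest on 10 reads in all and the macrophage values on 41. All osteoclast libraries lay below all macrophage libraries, and both lay far below the dendritic cell libraries. The log2 fold change was -1.74 ± 0.52 for osteoclasts over macrophages (adjusted p 0.00446), -7.29 ± 0.48 for osteoclasts over dendritic cells (3.59e-50) and 5.55 ± 0.37 for dendritic cells over macrophages (2.39e-50), in the authors' deposited table. Each of the 3 exact permutation tests gave p = 0.0286 (adjusted 0.0357). In macrophage libraries A to D, 10 of the 12 dendritic cell markers, MHC class II genes among them, summed to 2259, 553, 3670 and 454 normalised reads. The 3 markers Cd209a, Dpp4 and Flt3 summed to 4.79, 1.95, 1.95 and 1.97 there. The part of dendritic cell transcripts in the macrophage values of Batf3 was not tested.

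Around Batf3, its relatives were likewise highest in dendritic cells except for Jdp2. Batf had 19.9, 21.9, 25.0 and 35.3 normalised reads in osteoclast libraries A to D, 543, 378, 365 and 463 in dendritic cell libraries and 53.7, 63.3, 21.4 and 63.9 in macrophage libraries. Osteoclast and macrophage libraries of Batf overlapped, and the dendritic cell libraries stood above both. Jdp2, a repressing AP-1 partner that osteoclasts need, averaged 3994 in osteoclasts, 424 in dendritic cells and 433 in macrophages by the authors' deposited table. Of the 5 genes in this family 1 was called higher and 4 lower in osteoclasts in both comparisons, and 4 higher and 0 lower in dendritic cells than in macrophages, by the authors' deposited table.

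The listed genes of type 1 dendritic cells, the cells that need Batf3, did not move together. The list marks those cells, and whether BATF3 acts on its genes in other cells was not tested. Of 11, 1 was called higher and 4 lower in osteoclasts than in macrophages, 2 higher and 7 lower in osteoclasts than in dendritic cells, and 5 higher and 4 lower in dendritic cells than in macrophages, by the authors' deposited table. Clec9a, a receptor for dead cells on type 1 dendritic cells, had 1.99, 0, 3.00 and 1.01 normalised reads in osteoclast libraries A to D, 211, 555, 423 and 426 in dendritic cell libraries and 4.79, 1.95, 3.898 and 7.86 in macrophage libraries. The dendritic cell libraries stood apart, and the library highest for Batf3, A, was the lowest for Clec9a. Xcr1, the chemokine receptor that defines the same cells and named here after its values were seen, stayed low, with 2.98, 5.96, 11.01 and 4.03 in osteoclast libraries, 34.6, 21.4, 22.5 and 14.4 in dendritic cell libraries and 9.59, 5.84, 7.80 and 19.7 in macrophage libraries. Dendritic cell and macrophage libraries of Xcr1 overlapped. Cadm1, an adhesion protein, was lowest in dendritic cells, averaging 6681 in osteoclasts, 61.2 in dendritic cells and 8611 in macrophages by the authors' deposited table, and Tlr3 averaged 449 in osteoclasts, 294 in dendritic cells and 765 in macrophages in the same deposited table of the authors. The markers of type 1 dendritic cells thus split within the same cultures.

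Genes of type 2 dendritic cells that depend on Klf4 or Irf4 were more uniform. Of 10, 1 was called higher and 8 lower in osteoclasts than in dendritic cells, with a median log2 fold change of -6.00, and 9 higher and 1 lower in dendritic cells than in macrophages, with a median of 5.67, in the authors' deposited table. Between osteoclasts and macrophages, where Klf4 was higher in osteoclasts, 3 were called higher and 1 lower, with a median of -0.30 in the authors' deposited table. Ccl17, a chemokine for T cells, averaged 64.2 in osteoclasts, 69230 in dendritic cells and 64.9 in macrophages, by the authors' deposited table. Mgl2, a lectin, averaged 40.2 in osteoclasts, 36265 in dendritic cells and 60.7 in macrophages by the authors' deposited table. Sirpa, a surface receptor shared by macrophages and type 2 dendritic cells, ran against the list, at 52071 in osteoclasts, 35135 in dendritic cells and 84647 in macrophages by the authors' deposited table. Clec4a4 also had a higher mean in osteoclasts, at 94.9, than in dendritic cells, at 35.0, though it was not called between them. Mgl2, Cd209a and Ccl22 of this list also stand among the dendritic cell markers used to check identity.

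Id2 (chromosome 12, 25093799 to 25097140, minus strand), the inhibitor of E proteins, was highest in dendritic cells and lowest in osteoclasts. Its mean was 2675 in osteoclasts, 12944 in dendritic cells and 4942 in macrophages by the authors' deposited table. Every step was called, with log2 fold changes of -0.87 ± 0.26 for osteoclasts over macrophages (adjusted p 0.00518), -2.24 ± 0.26 for osteoclasts over dendritic cells (3.54e-16) and 1.37 ± 0.26 for dendritic cells over macrophages (1.45e-06), in the authors' deposited table. The related Id3 had the reverse pattern between dendritic cells and macrophages. Id3 averaged 1380 in osteoclasts, 59.9 in dendritic cells and 1797 in macrophages by the authors' deposited table, and its dendritic cell libraries had 86.5, 75.3, 32.7 and 45.1 normalised reads in A to D. Id1 varied widely, with 669, 491, 183 and 105 normalised reads in osteoclast libraries, 260, 157, 149 and 128 in dendritic cell libraries and 445, 525, 1230 and 959 in macrophage libraries. Osteoclast libraries of Id1 overlapped both other cell types, and only dendritic cells over macrophages was called in the authors' deposited table (-2.08 ± 0.46, adjusted p 4.09e-05). Among the E proteins that ID proteins bind, Tcf4 averaged 1373 in osteoclasts, 1088 in dendritic cells and 2987 in macrophages, by the authors' deposited table. Tcf12, another E protein, averaged 2631 in osteoclasts, 1563 in dendritic cells and 2201 in macrophages by the authors' deposited table. Of 6 tested ID and E protein genes, 0 were called higher and 2 lower in osteoclasts than in macrophages, 2 higher and 1 lower in osteoclasts than in dendritic cells, and 1 higher and 4 lower in dendritic cells than in macrophages, by the authors' deposited table. Of all tested genes, 29.3%, 36.9% and 36.7% were called in these comparisons, so the count between osteoclasts and macrophages is near the background.

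**Figure D4:**
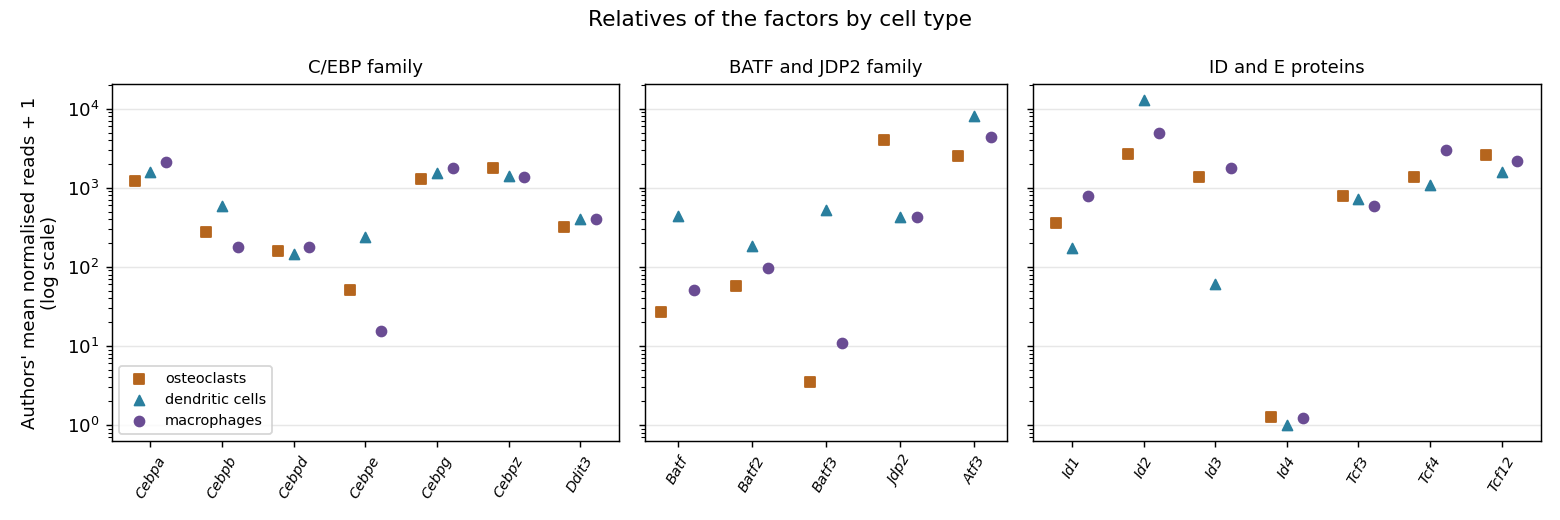
The authors' mean normalised reads plus 1 (log axis) of the genes of 3 families, in osteoclasts (squares), dendritic cells (triangles) and macrophages (circles). Batf and Id2 are highest in dendritic cells, Id3 highest in macrophages, and Jdp2 highest in osteoclasts, at 3994 against 424 in dendritic cells and 433 in macrophages.

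Bcl6 (chromosome 16, 23965052 to 23988852, minus strand), the zinc-finger repressor, followed the same order as Maf over a narrower range. Its mean was 1586 in osteoclasts, 718 in dendritic cells and 2811 in macrophages by the authors' deposited table. Dendritic cell libraries had 633, 648, 820 and 769 normalised reads in A to D (718 ± 91.4, SD, n = 4). The most even of 3 possible sets of osteoclast libraries was 1809, 1666, 1332 and 1538, and the next needs a library at 283. In that set all osteoclast libraries lay above the dendritic cell libraries. The log2 fold change was -0.82 ± 0.19 for osteoclasts over macrophages (adjusted p 0.000195), 1.13 ± 0.19 for osteoclasts over dendritic cells (4.24e-08) and -1.95 ± 0.19 for dendritic cells over macrophages (1.63e-22), in the authors' deposited table. Prdm1 encodes BLIMP1, which opposes BCL6 in lymphocytes and represses inhibitors of osteoclast formation in mice. It had 968, 946, 1203 and 581 normalised reads in osteoclast libraries A to D, 252, 247, 468 and 296 in dendritic cell libraries and 849, 122, 362 and 174 in macrophage libraries. Osteoclasts stood above dendritic cells but overlapped macrophages through macrophage library A. In the authors' deposited table Prdm1 was called higher in osteoclasts than in macrophages (1.24 ± 0.45, adjusted p 0.024) and than in dendritic cells (1.48 ± 0.45, adjusted p 0.00392). Of the 9 genes in the list of BCL6 with its partners and antagonists, 1 was called higher and 2 lower in osteoclasts than in macrophages, 2 higher and 1 lower in osteoclasts than in dendritic cells, and 1 higher and 3 lower in dendritic cells than in macrophages, by the authors' deposited table. All these counts are near the background, as 29.3%, 36.9% and 36.7% of all tested genes were called.

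Wider lists of transcription factors gave the setting. Of all tested genes, 29.3% were called between osteoclasts and macrophages. The shares were 36.9% between osteoclasts and dendritic cells and 36.7% between dendritic cells and macrophages. Of 18 other dendritic cell factors, 3 were called higher and 11 lower in osteoclasts than in macrophages, 1 higher and 14 lower in osteoclasts than in dendritic cells, and 13 higher and 3 lower in dendritic cells than in macrophages, by the authors' deposited table. Mycl, a MYC relative known from dendritic cells, was the factor called higher in osteoclasts than in dendritic cells, averaging 1121 in osteoclasts, 276 in dendritic cells and 18.7 in macrophages by the authors' deposited table. Of 15 osteoclast factors, 10 were called higher and 0 lower in osteoclasts than in macrophages, 5 higher and 3 lower in osteoclasts than in dendritic cells, and 7 higher and 2 lower in dendritic cells than in macrophages, by the authors' deposited table. Fos, the AP-1 subunit required for osteoclasts, averaged 9998 in osteoclasts, 471 in dendritic cells and 3318 in macrophages by the authors' deposited table. Of 15 tested macrophage factors beside the members, 6 were called higher and 6 lower in osteoclasts than in macrophages, 5 higher and 6 lower in osteoclasts than in dendritic cells, and 6 higher and 5 lower in dendritic cells than in macrophages, by the authors' deposited table. Egr2, a zinc-finger factor known from GM-CSF-dependent alveolar macrophages, averaged 736 in osteoclasts, 7566 in dendritic cells and 222 in macrophages, by the authors' deposited table. Mef2c, a MADS-box factor, averaged 584 in osteoclasts, 243 in dendritic cells and 3324 in macrophages by the authors' deposited table.

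**Figure D5:**
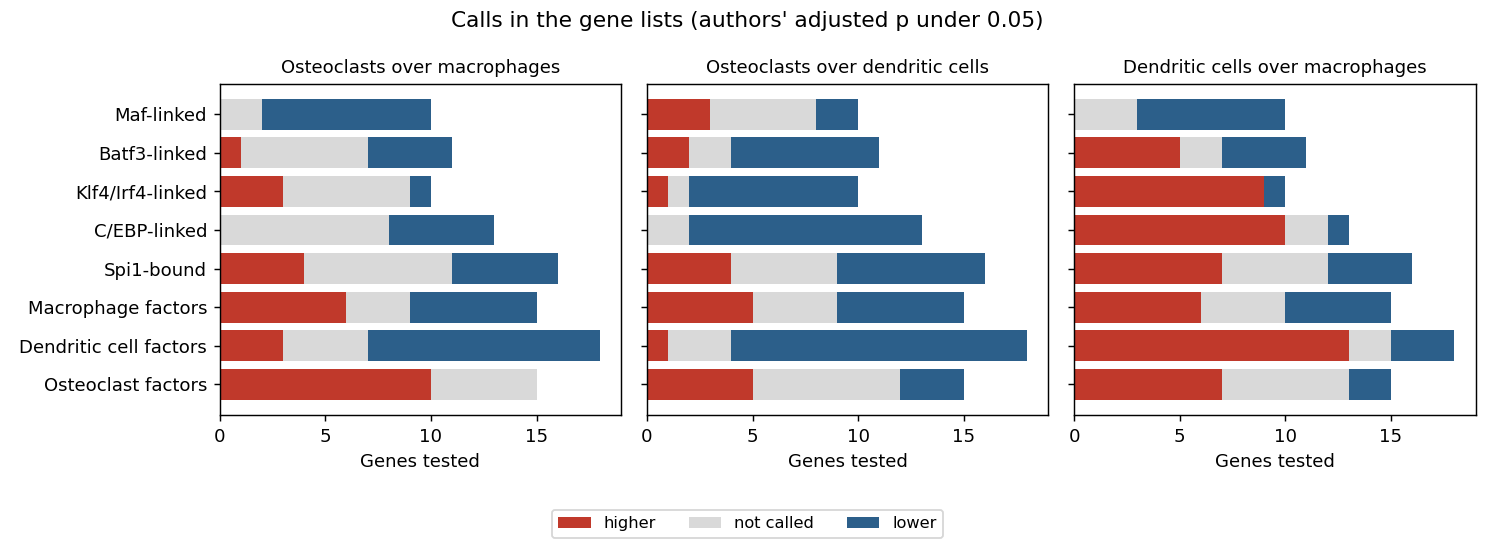
Number of tested genes called higher (left segment), not called (middle) or called lower (right) in 8 gene lists for each comparison, by the authors' adjusted p under 0.05. The Maf-linked list has 8 and 7 genes lower in osteoclasts and in dendritic cells than in macrophages, while the Batf3-linked list holds calls in both directions in each panel.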

How the data were processed

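The 12 libraries came from a kit that marks the strand of mRNA (per the labels' protocols). Per the submitters' processing notes the build was GRCm38, and DESeq2 2.13, Cufflinks 2.1.1, TopHat2, Bowtie2 and bcl2fastq were used. Their roles and the strand setting of the counting were not given in any source used here. Per the file headers, the deposited table holds the authors' mean signal per cell type, log2 fold changes, p-values and adjusted p-values; the values show that this signal is the average over 4 libraries of counts divided by a size factor. The total reads per library are not known. The sums of the means per cell type were 24242540 in osteoclasts, 27731759 in dendritic cells and 25022062 in macrophages. Deposited fold changes for macrophages and dendritic cells were turned to dendritic cells over macrophages. Standard errors were worked back from each fold change and its two-sided p-value through the normal distribution, which assumes a Wald test.

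Because each mean is an average of whole reads over size factors and is printed to many digits, whole reads per library were recovered for means up to 1000, and for the members up to 3000. At means up to 1000 exactly 1 solution was found for 17313 of 17313 genes in osteoclasts, 18270 of 18272 in dendritic cells and 17945 of 17969 in macrophages. Recovered size factors, by which the counts were divided, ran from 0.975 to 1.04. Several solutions were left unresolved unless 1 set had a highest library under 2 times its lowest and all others over 5 times. Recovered reads were tested with limma 3.58.1 on log2(normalised reads + 1) with at least 10 reads, and members by exact permutation. Recovery and limma were tested on simulated data.

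Symbols matched 45138 of 46072 identifiers. Coordinates and exon lengths are from GENCODE M21, and sequences from RefSeq GRCm38.p6. The members and the 27 gene and marker lists were chosen with earlier results of these data known. Beside the members and their families, the genes named as examples of a list were taken from the 2 called genes of smallest p per direction in each comparison, and not all of these are named. Cebpd, Mafk and Id1 are given as relatives of members. Libraries were grouped by the labels, with the 3 cell types of each of 4 experiments taken from 1 mouse. Alternatives were other scalings between cell types, a stricter p or a 2-fold minimum, adjustment over all genes, other pseudocounts and leaving out each library.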

Additional observations from a re-analysis of the deposited data

Results flagged for a closer look

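Among the 13 sets of 4 member libraries with exactly 1 solution, 1 set held a library far from the others. For Cebpb in macrophages the lowest library, D, had 95.3 normalised reads against 199 to 205 in the other libraries, a gap of 0.941 of the whole range; Dixon's test at the 95% level marks it. Chance gives such a gap in about 1 in 20 groups.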

How the results depend on the processing

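Directions of the 9 factors held in all settings tried, with no reversal. For Spi1, Cebpa, Maf, Id2 and Bcl6, and for Klf4 against dendritic cells, only 4 settings were possible. These rescaled or readjusted the authors' values and left out no library, so they could hardly reverse most of these differences. Of 84 counts of called members, 81 stayed within 1.5 times. Most of these counts cover only the 3 or 4 members whose libraries were resolved. There a fall from 3 to 2 still lies within that limit, so the lost calls of Cebpb do not show in them. The members lower in osteoclasts than in macrophages numbered 5, and 2 with at least a 2-fold ratio of means. The members lower in osteoclasts than in dendritic cells numbered 5, but 3 with the summed means made equal and 3 at an adjusted p under 0.01. Making sums equal shifted all log2 fold changes by 0.05 for osteoclasts over macrophages, 0.19 for osteoclasts over dendritic cells and -0.15 for dendritic cells over macrophages; upper quartiles shifted them by -0.03, 0.05 and -0.08. Of 150 alternative fits of called differences, 140 kept the call and 10 lost it (9 for Cebpb and 1 for Klf4, osteoclasts over dendritic cells), and of 21 fits of differences not called, 1 gained it (Cebpa). For Cebpb the adjusted p became 0.104 with equal sums, 0.0531 with equal upper quartiles and 0.0512 when adjusted without the authors' filter of low genes. The causes were not tested. Batf3 and Zbtb46 stayed called by limma without any 1 library. No paired analysis was possible because the recovered libraries carry no replicate number and cannot be tied to a mouse. With 4 libraries a side, p under 0.0286 cannot be reached by permutation, and for Batf3 in osteoclasts 10 reads in all limit the precision. The spread between libraries was unresolved for Spi1 and Id2, for Maf and Cebpa in osteoclasts and macrophages, for Bcl6 in macrophages and for Klf4 in dendritic cells. With a pseudocount of 5 in place of 1, the log2 difference of Batf3 became -0.97 in place of -1.60 for osteoclasts over macrophages and -6.04 in place of -7.14 for osteoclasts over dendritic cells, with the same permutation p.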

Other observations

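Over the 3 cell types, the listed gene nearest in pattern to each factor, by Euclidean distance of centred log2(mean + 1) among 138 genes, was Esrra for Spi1 (0.14), Nr4a1 for Cebpa (0.09), Klf7 for Cebpb (0.44), Fosl2 for Klf4 (0.60), Id3 for Maf (1.34), Naaa for Zbtb46 (0.43), Cd209a for Batf3 (0.26), Batf2 for Id2 (0.47) and Id1 for Bcl6 (0.22). A pattern over 3 points is a description.

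Many factors of progenitors and granulocytes, but not all, were higher in dendritic cultures. Of 12, 0 were called higher and 8 lower in osteoclasts than in dendritic cells, and 7 higher and 1 lower in dendritic cells than in macrophages, by the authors' deposited table. Between osteoclasts and macrophages 2 of 11 were called higher and 4 lower in osteoclasts by the authors' deposited table. Gata2, a factor of progenitors and mast cells, averaged 10.2 in osteoclasts, 231 in dendritic cells and 5.35 in macrophages by the authors' deposited table. Myb, a progenitor factor, was listed at 0 in osteoclasts, at 53.1 in dendritic cells and at 2.93 in macrophages by the authors' deposited table. Other genes of the list were highest in macrophages. Tal1, Ets1 and Meis1 averaged 638, 385 and 98.3 there, against 500, 268 and 62.5 in dendritic cells.

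Marker lists of further cell types gave these sums of means in the authors' deposited table. The 8 stromal markers summed to 297 in osteoclasts, 942 in dendritic cells and 20.7 in macrophages, and the 9 B cell markers to 70.4 in osteoclasts, 340 in dendritic cells and 943 in macrophages. The 9 T and NK cell markers summed to 73.8 in osteoclasts, 45.7 in dendritic cells and 10.7 in macrophages, the 6 plasmacytoid dendritic cell markers to 1474 in osteoclasts, 2192 in dendritic cells and 3115 in macrophages, and the 7 erythroid markers to 2.24 in osteoclasts, 8.68 in dendritic cells and 12.2 in macrophages, again from the authors' deposited table. Bst2 alone gave 1464.5, 1860 and 3110.5 of the plasmacytoid sums in osteoclasts, dendritic cells and macrophages. Library sums of the 5 others were 6.05 to 12.0 in osteoclasts, 157 to 516 in dendritic cells and 1.92 to 6.82 in macrophages. Single genes led other sums, Dcn at 283 in osteoclasts and Lepr at 889 in dendritic cells (stromal). Ighm led the B cell sum in macrophages at 891, and Trac the T and NK cell sum in osteoclasts at 58.4. The part of all these lists in the results was not tested.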
